A study of Mus musculus with 18 samples.

Results

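The genes described here encode 2 cation-chloride cotransporters (Slc12a5 and Slc12a2), 4 GABA receptor subunits (Gabra2, Gabra3, Gabrr1 and Gabrr2) and 1 glycine receptor subunit (Glra1), followed through the postnatal development of the mouse retina. All probe sets whose only gene symbol in the array annotation was 1 of these 7 were taken, which gave 16 of 45037 probe sets, and for each gene the probe set with the highest mean over the 18 arrays was used to describe it first. The arrays came from whole retinas of mice lacking the kinase gene Plk3 (Plk3-KO) and of their wildtype (WT) littermates at P0, at P7 and in the adult, with 3 arrays for each of the 6 groups. The strain was given as C57Bl/6 in all groups. The Plk3-KO line had been partly on a Black Swiss background carrying the Rd1 mutation of Pde6b, and it was crossed to C57Bl/6 until litters were wildtype at that locus, so both genotypes derive from this cross. The labels do not say whether an array holds the RNA of 1 animal, so the p-values below measure the spread between arrays. All values are deposited MAS5 signals on the log2 scale, on which 1 unit is a 2-fold difference, and ± gives the SD of 3 arrays unless it is named as a standard error (SE). Levels are read within a probe set only, since probe sets differ in how strongly they bind.

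GABA and glycine are the inhibitory transmitters of the retina and open chloride channels on the cells that receive them. Whether that chloride current inhibits or excites a neuron depends on its internal chloride: Slc12a2 (NKCC1) loads chloride into cells and Slc12a5 (KCC2) carries it out of neurons, and in maturing neurons of many brain regions KCC2 becomes abundant as GABA turns from a depolarising into a hyperpolarising signal. Gabra2 and Gabra3 encode alpha subunits of the synaptic GABA-A receptor, and Glra1 the alpha subunit of the adult form of the glycine receptor. Gabrr1 and Gabrr2 encode the rho subunits, which build the slow and sustained GABA-C type of receptor on the axon terminals of bipolar cells.

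The upstream sequences of Gabrr2, Gabrr1 and Slc12a5 are shown because their adult-minus-P0 differences on the lead probe sets were the largest of the 7 genes in WT retinas, and 2 of them are neighbours. In Plk3-KO retinas Glra1 stood ahead of Slc12a5. They are the 250 bases before an annotated start in RefSeq (GRCm38.p6, + strand, 5′ to 3′). Gabrr2 (chr4:33057712-33095865) and Gabrr1 (chr4:33132556-33163588) lie 36.7 kb apart. The windows are chr4:33062862-33063111 for Gabrr2, whose listed start lies inside the span of the gene, chr4:33132306-33132555 for Gabrr1, and chr2:164960596-164960845 and chr2:164967738-164967987 for 2 starts of Slc12a5 (gene at chr2:164960846-164999731). Capitals mark every match, on either strand, to the core TAATCC of the homeodomain factors Otx2 and Crx, to the E-box CAGCTG bound by bHLH factors, to its variant E-box CAGATG, to its further variant E-box CATATG, and to the Sp1 core GGGCGG. None of the matches in these windows overlap.
Gabrr2: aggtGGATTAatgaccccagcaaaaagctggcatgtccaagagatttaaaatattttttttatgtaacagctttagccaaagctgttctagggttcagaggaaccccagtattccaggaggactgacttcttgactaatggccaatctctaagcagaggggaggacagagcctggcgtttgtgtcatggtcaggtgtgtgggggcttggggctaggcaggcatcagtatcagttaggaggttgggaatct
Gabrr1: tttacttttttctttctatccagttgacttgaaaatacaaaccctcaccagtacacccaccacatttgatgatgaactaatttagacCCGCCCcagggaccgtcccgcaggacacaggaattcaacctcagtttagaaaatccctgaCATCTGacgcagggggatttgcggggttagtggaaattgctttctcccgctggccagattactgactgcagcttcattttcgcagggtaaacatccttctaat
Slc12a5, first start: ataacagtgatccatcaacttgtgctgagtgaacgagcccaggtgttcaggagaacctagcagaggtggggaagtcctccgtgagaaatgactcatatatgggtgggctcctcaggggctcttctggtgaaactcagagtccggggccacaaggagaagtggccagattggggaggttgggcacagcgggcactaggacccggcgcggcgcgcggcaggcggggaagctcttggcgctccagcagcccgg
Slc12a5, second start: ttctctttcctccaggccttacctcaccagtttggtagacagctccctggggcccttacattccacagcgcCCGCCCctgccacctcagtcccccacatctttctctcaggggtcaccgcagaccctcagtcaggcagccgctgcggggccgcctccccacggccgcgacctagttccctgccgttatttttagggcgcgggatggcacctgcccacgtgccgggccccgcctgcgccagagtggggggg
The Gabrr2 window held 1 TAATCC core, read on the opposite strand, a word found in 6.25% of 32851 mouse promoter windows of the same length. The Gabrr1 window held 1 Sp1 core, found in 32.7% of promoters, and 1 CAGATG E-box, found in 14.4%. Of the Slc12a5 windows, the second held 1 Sp1 core and the first held none of the words, of which CAGCTG was found in 13% and CATATG in 3.46% of promoters. A match is a description of the letters only.

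A mean above 7, the minimum used in the study's methods, was reached in at least 1 of the 6 groups by 25085 probe sets and by 12 of the 16 described here. Differences were fitted with limma over all 18 arrays, with Benjamini-Hochberg adjustment over all probe sets tested, and called at an adjusted p under 0.05. Correlation with the other arrays of the same age was 0.935 to 0.948 at P0 and 0.904 to 0.956 at P7, but 0.802 to 0.922 in the adult, where Plk3-KO array 3 was lowest (0.802 to 0.849). On that array the actin 3′ probe set stood 2.7 above the 5′ one, against 1.6 to 1.8 on the other adult arrays, and at P7 this difference was 1.6 on Plk3-KO array 2 and WT array 3, against 0.8 to 1.1 on the rest. These 3 arrays and adult WT array 3 are left out together in the values given below as without 4 arrays. Adult WT array 3 was chosen from earlier results of these data and does not stand apart on these 2 measures (correlation 0.849 to 0.921, actin difference 1.6). Its median signal was 7.0 and that of adult Plk3-KO array 3 was 7.2, against 6.3 to 6.5 on the other adult arrays. The 2 P7 arrays left out had medians of 6.4, against 6.8 to 6.9 on the rest. Of 7 rod markers, 5 had a mean above the minimum at P0 and all 7 at P7 and in the adult, in each genotype. Their mean level over the 7 genes was 8.86 to 9.43 in Plk3-KO and 8.80 to 9.43 in WT retinas at P0, and 15.23 to 15.93 in Plk3-KO and 14.79 to 15.60 in WT adults. In whole retinas fewer cells of a type and less RNA per cell cannot be told apart. The single Plk3 probe set lies at the 3′ end of the gene, so it does not check the deletion; its adult means were 7.70 in Plk3-KO and 5.20 in WT retinas.

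Slc12a5 rose in both genotypes over both intervals. At P0 its values were 10.5, 10.6 and 10.4 in Plk3-KO and 10.5, 10.9 and 10.2 in WT retinas. At P7 they were 12.8, 12.3 and 12.6 in Plk3-KO and 12.8, 12.9 and 12.5 in WT retinas. In the adult they were 13.6, 14.1 and 14.6 in Plk3-KO and 13.9, 13.9 and 14.0 in WT retinas. Every array was above all arrays of the age before it in its genotype, and the genotypes overlapped at each age. P7 exceeded P0 by 2.07 in Plk3-KO (SE 0.23, limma adjusted p = 1.11e-05) and by 2.20 in WT retinas (SE 0.23, adjusted p = 7.08e-06). The adult exceeded P7 by 1.53 in Plk3-KO (adjusted p = 0.000365) and by 1.20 in WT retinas (adjusted p = 0.00252), and P0 by 12.1-fold in Plk3-KO (adjusted p = 8.4e-09) and 10.6-fold in WT retinas (adjusted p = 1.58e-08). Without 4 arrays the adult-minus-P0 differences were 3.35 in Plk3-KO and 3.37 in WT retinas. A second Slc12a5 probe set passed the minimum only through the adult Plk3-KO group. Its P0 and P7 means were below the minimum in both genotypes, so its early difference is not given, and its later differences of 1.67 in Plk3-KO and 0.33 in WT retinas were not called (adjusted p = 0.145 and 0.796).

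In the unweighted fit over all 18 arrays, Slc12a2 had no called difference on any probe set. Its brightest probe set averaged 11.03 ± 0.25 in Plk3-KO and 11.03 ± 0.15 in WT retinas at P0, 11.17 ± 0.06 and 11.27 ± 0.15 at P7, and 11.17 ± 0.40 and 10.87 ± 0.25 in the adult, Plk3-KO before WT at each age. All 18 arrays lay between 10.6 and 11.6. The adult-minus-P0 difference was 0.13 in Plk3-KO (SE 0.20, adjusted p = 0.609) and -0.17 in WT retinas (SE 0.20, adjusted p = 0.509). The WT sign turned to 0.20 when the arrays were set to the same median. The other 2 probe sets of the gene were lower in the adult than at P0, by 0.47 and 0.13 in Plk3-KO and by 1.30 and 1.00 in WT retinas, and missed the threshold (adjusted p = 0.0625 and 0.086 in WT retinas). The adult WT arrays lay below the P0 WT arrays without overlap on the first of these 2 and overlapped them on the second. On these probe sets adult WT array 1 read 7.5 and 7.6, against 8.3 to 9.4 on adult WT arrays 2 and 3 and 9.2 or more on the P0 WT arrays. At P7, which these differences do not use, WT array 3 read 7.5 and 7.3, against 9.2 to 10.2 on P7 WT arrays 1 and 2.

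**Figure D1:**
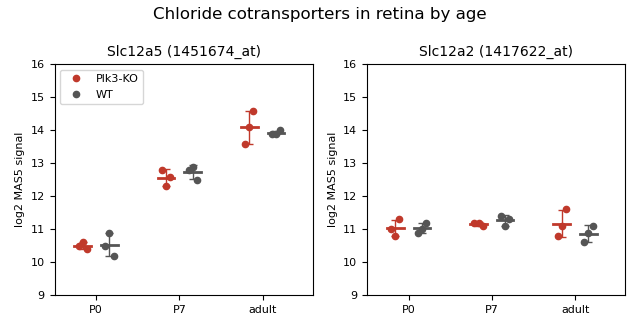
Log2 MAS5 signal of the lead probe sets of Slc12a5 and Slc12a2 at P0, P7 and in the adult, with a point for each array, a bar at the mean of 3 and whiskers of 1 SD, Plk3-KO in red left of WT in grey. The dotted line for the minimum of 7 lies below the plotted range. Slc12a5 climbed from 10.2 to 10.9 at P0 up to 13.6 to 14.6 in the adult, while Slc12a2 stayed between 10.6 and 11.6.

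The unequal change of the cotransporters was tested within arrays, as Slc12a5 minus Slc12a2, which no scaling of an array can alter. Relative to P0 the difference had grown by 1.93 ± 0.26 in Plk3-KO and 1.97 ± 0.31 in WT retinas at P7, and by 3.47 ± 0.12 in Plk3-KO and 3.57 ± 0.21 in WT retinas in the adult. An exact two-sided permutation of the ages within each genotype gave p = 0.005 for P7 against P0, for the adult against P7 and for the adult against P0, the smallest p its 400 arrangements allow, and 0.005 after adjustment over the 6 such comparisons made. The comparison was chosen after the values were seen. Its p-values describe the chosen difference, give no independent support for it, and do not show that Slc12a2 stayed constant.

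Among the GABA-A alpha subunits, Gabra3 (chromosome X) showed a gradual rise. Its values were 7.3, 7.1 and 6.5 in Plk3-KO and 7.5, 7.1 and 7.0 in WT retinas at P0. They were 8.0, 7.4 and 8.1 in Plk3-KO and 8.2, 8.2 and 7.5 in WT retinas at P7. In the adult they were 8.7, 8.9 and 7.6 in Plk3-KO and 9.1, 9.0 and 8.2 in WT retinas. Neighbouring ages overlapped except P7 and P0 in Plk3-KO, and adult arrays did not overlap P0 arrays in either genotype. The adult exceeded P0 by 1.43 in Plk3-KO (SE 0.37, adjusted p = 0.0057) and by 1.57 in WT retinas (SE 0.37, adjusted p = 0.00312), and neither single interval was called. The P0 Plk3-KO mean of 6.97 was just below the minimum, so the size of the Plk3-KO differences from P0 is not firm. Without 4 arrays the rise by P7 was called in both genotypes (1.08 in Plk3-KO with adjusted p = 0.00648, and 1.00 in WT retinas with adjusted p = 0.0101), and so was the WT rise from P7 to the adult (0.85, adjusted p = 0.0269). The second Gabra3 probe set stayed below 7 in all groups and was not tested.

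Gabra2 gave different answers on its probe sets. On the lead probe set the values were 7.8, 7.8 and 7.3 in Plk3-KO and 7.9, 7.9 and 8.1 in WT retinas at P0. At P7 they were 8.4, 8.8 and 8.5 in Plk3-KO and 8.5, 8.4 and 8.5 in WT retinas, and in the adult 8.4, 9.0 and 9.2 in Plk3-KO and 8.2, 8.7 and 9.1 in WT retinas. P0 lay below both later ages without overlap in each genotype, and P7 and the adult overlapped. The rise by P7 was 0.93 in Plk3-KO (SE 0.26, adjusted p = 0.0189) and 0.50 in WT retinas (SE 0.26, adjusted p = 0.206), and the difference between these changes, 0.43, was not called (adjusted p = 1). The adult exceeded P0 by 1.23 in Plk3-KO (adjusted p = 0.00128) and by 0.70 in WT retinas (adjusted p = 0.0385). The WT call was lost without adult WT array 2 or 3 or any 1 of the P0 WT arrays (adjusted p = 0.0553 to 0.152), and also without 4 arrays, with no minimum and with only the groups compared in the fit (adjusted p = 0.102, 0.0614 and 0.0689). The Plk3-KO call at P7 was lost without P7 Plk3-KO array 2 or P0 Plk3-KO array 3 (adjusted p = 0.0764 and 0.0918). The next probe set by mean level had adult-minus-P0 differences of -0.40 in Plk3-KO and -0.33 in WT retinas, and the third had 0.60 in Plk3-KO and -0.07 in WT retinas, with no age difference called on either. On the second, P7 Plk3-KO array 2 read 7.2 and P7 WT array 3 read 6.7, against 8.5 to 9.6 on the other P7 arrays. In the adult, Plk3-KO array 1 read 6.8 and WT array 2 read 7.2 on it, against 8.2 to 9.0 on the other adult arrays. The remaining 2 probe sets never reached the minimum.

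The rho subunits showed the largest age differences of the 7 genes, at different ages. Gabrr1 had risen by P7. Its values were 5.5, 4.9 and 6.6 in Plk3-KO and 3.4, 6.1 and 6.3 in WT retinas at P0, all below the minimum. They were 9.5, 7.9 and 9.4 in Plk3-KO and 9.2, 9.8 and 8.8 in WT retinas at P7. In the adult they were 9.8, 10.6 and 10.3 in Plk3-KO and 10.9, 11.2 and 10.8 in WT retinas. No array of a later age overlapped those of an earlier age within a genotype. P7 exceeded P0 by 3.27 in Plk3-KO (SE 0.64, adjusted p = 0.00163) and by 4.0 in WT retinas (SE 0.64, adjusted p = 0.000332). From P7 to the adult the differences of 1.30 in Plk3-KO and 1.70 in WT retinas were not called (adjusted p = 0.18 and 0.078). The WT one was called when only its own groups entered the fit (adjusted p = 0.0159) and without P0 WT array 1 (adjusted p = 0.0193).

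Gabrr2 was below the minimum at both early ages and bright in the adult. Its values were 2.8, 4.7 and 5.7 in Plk3-KO and 2.5, 5.7 and 4.0 in WT retinas at P0, and 5.9, 4.9 and 5.7 in Plk3-KO and 6.4, 6.2 and 5.5 in WT retinas at P7. In the adult they were 10.5, 11.0 and 10.7 in Plk3-KO and 11.3, 11.6 and 11.1 in WT retinas. The adult arrays lay far above all earlier ones, while P0 and P7 overlapped in each genotype. The adult exceeded P7 by 5.23 in Plk3-KO (SE 0.71, adjusted p = 0.000131) and by 5.30 in WT retinas (SE 0.71, adjusted p = 0.000125). The P7-minus-P0 differences were 1.10 in Plk3-KO (adjusted p = 0.32) and 1.97 in WT retinas (adjusted p = 0.0633). The WT one was called under quantile normalisation and with arrays at the same median (adjusted p = 0.0325 and 0.0439) and without P0 Plk3-KO array 1, P0 Plk3-KO array 3 or P0 WT array 2 (adjusted p = 0.0109 to 0.0473). Since these means lie below the minimum, the size of the early differences of Gabrr2 and of the P0 level of Gabrr1 is not firm. Gabrr2 passed the minimum only through the adult arrays, so its adult calls are descriptions.

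**Figure D2:**
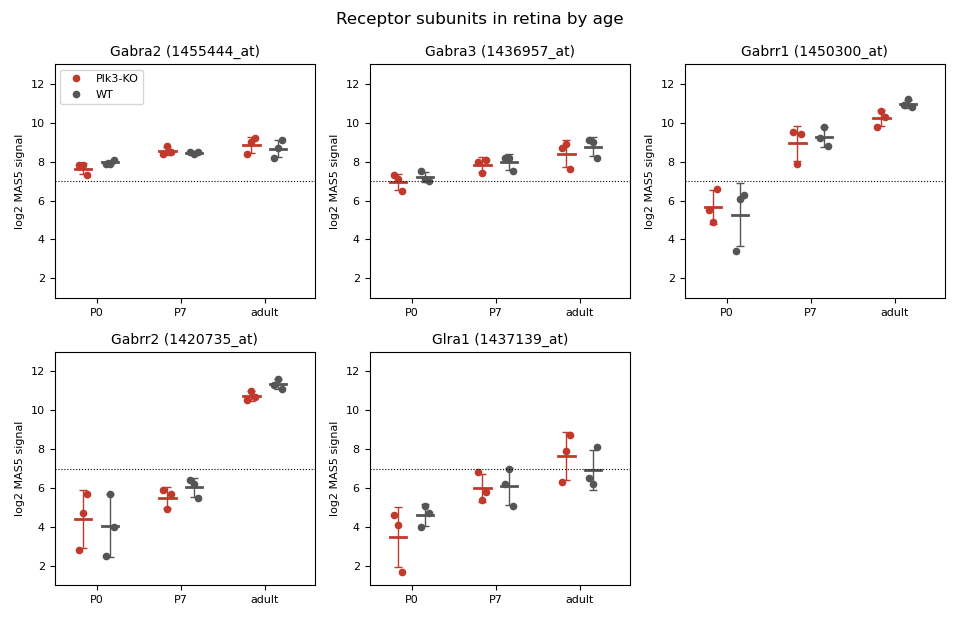
Log2 MAS5 signal of the lead probe sets of the 5 receptor subunits at P0, P7 and in the adult, with a point for each array, a bar at the mean of 3 and whiskers of 1 SD, Plk3-KO in red left of WT in grey. The dotted line marks the minimum of 7. Gabrr1 passed it at P7 and Gabrr2 only in the adult, while Gabra2 and Gabra3 lay near or above it at all ages and Glra1 reached a mean above it only in adult Plk3-KO retinas.

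The neighbouring rho genes were also compared within arrays. At P7 all arrays of both genotypes were above the minimum for Gabrr1 and below it for Gabrr2, and no test of the early interval is given, since its Gabrr2 values and the P0 values of Gabrr1 lie below the minimum. From P7 to the adult Gabrr2 changed more than Gabrr1, by 3.93 in Plk3-KO and 3.60 in WT retinas (exact two-sided permutation p = 0.005, and 0.005 adjusted over the 6 comparisons). With every value below the minimum set to it, an alternative added after the data were seen, this excess was 2.43 in Plk3-KO and 2.63 in WT retinas (exact permutation p = 0.005). The choice of this comparison also followed the values, and Gabrr2 passed the minimum only through its adult arrays. With values set to the minimum, all P7 values of Gabrr2 are equal, and both p-values are the smallest possible. These p-values describe the chosen difference and give no independent support for it. The nearest genes to Gabrr2 by Pearson r over the 18 arrays, among 12109 genes with a probe set above the minimum, were Pvalb (0.968), the cone opsin gene Opn1mw (0.967) and Impact (0.966). For Gabrr1 they were Shisa9 (0.971), the glucose transporter gene Slc2a3 (0.963) and Slc24a3 (0.962), and for Slc12a5 they were Hpcal4, Gramd1b and Sh3gl2 (0.988 each). All of these correlations rest on points that share 3 ages and the same libraries.

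Glra1 had a mean above the minimum in adult Plk3-KO retinas only. Its values were 4.6, 4.1 and 1.7 in Plk3-KO and 4.0, 5.1 and 4.7 in WT retinas at P0. They were 6.8, 5.4 and 5.8 in Plk3-KO and 6.2, 7.0 and 5.1 in WT retinas at P7. In the adult they were 6.3, 7.9 and 8.7 in Plk3-KO and 6.5, 6.2 and 8.1 in WT retinas. Within the adult, array 3 was the highest of both genotypes, and of these Plk3-KO array 3 is the one with the lowest correlations and the widest actin difference above. The adult exceeded P0 by 4.17 in Plk3-KO (SE 0.83, adjusted p = 0.00073) and by 2.33 in WT retinas (SE 0.83, adjusted p = 0.03), and without 4 arrays by 3.63 in Plk3-KO (adjusted p = 0.00184) and 1.75 in WT retinas (adjusted p = 0.0764). The WT call was also lost without adult WT array 3, P0 WT array 1 or P0 WT array 3 alone (adjusted p = 0.0604 to 0.113). The Plk3-KO rise by P7 was 2.53 (adjusted p = 0.0405) and lost its call without any 1 of the P7 Plk3-KO arrays, P7 WT array 1, or P0 Plk3-KO array 2 or 3 (adjusted p = 0.0526 to 0.203). The adult means were 7.63 ± 1.22 in Plk3-KO and 6.93 ± 1.02 in WT retinas, so Glra1 was tested through adult Plk3-KO alone. All of its P0 and P7 means were below the minimum, which leaves the size of these differences not firm, and the Plk3-KO call at P7 and the WT call in the adult lie between means that are both below it. The second Glra1 probe set was not tested.

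Over the 7 genes on their lead probe sets, 6 were called higher in the adult than at P0 in each genotype and none lower. The shares given beside these counts are over all probe sets, including the further ones of a gene. Of all probe sets tested, 19.4% were called higher and 24.2% lower in Plk3-KO, and 20.7% higher and 25.9% lower in WT retinas. For P7 minus P0, 4 genes were called higher in Plk3-KO and 2 in WT retinas, against 10.1% of all probe sets higher and 9.66% lower in Plk3-KO and 10.3% higher and 8.85% lower in WT retinas. For adult minus P7, 2 genes were called higher in each genotype, against 7.96% higher and 9.2% lower in Plk3-KO and 8.54% higher and 8.79% lower in WT retinas. The median adult-minus-P0 difference of the 7 was 3.60 in Plk3-KO and 2.33 in WT retinas, where the medians of all probe sets tested were -0.23 in Plk3-KO and -0.20 in WT retinas. Gabrr2 and Glra1 were tested only through adult arrays, so these counts and medians, which include the Glra1 calls between means below the minimum, are descriptions. With arrays at the same median, all probe sets split for the adult against P0 into 5010 higher and 3815 lower in Plk3-KO and 6010 and 4023 in WT retinas, in place of 4862 and 6077 in Plk3-KO and 5203 and 6503 in WT retinas. For P7 against P0 the split became 2366 higher and 1110 lower in Plk3-KO and 2359 and 1102 in WT retinas, in place of 2543 and 2424 in Plk3-KO and 2596 and 2220 in WT retinas. That scaling raised the median of all probe sets from -0.20 to 0.17 for the adult against P0 in WT retinas, and the called rises of the 7 genes kept their sign under it.

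**Figure D3:**
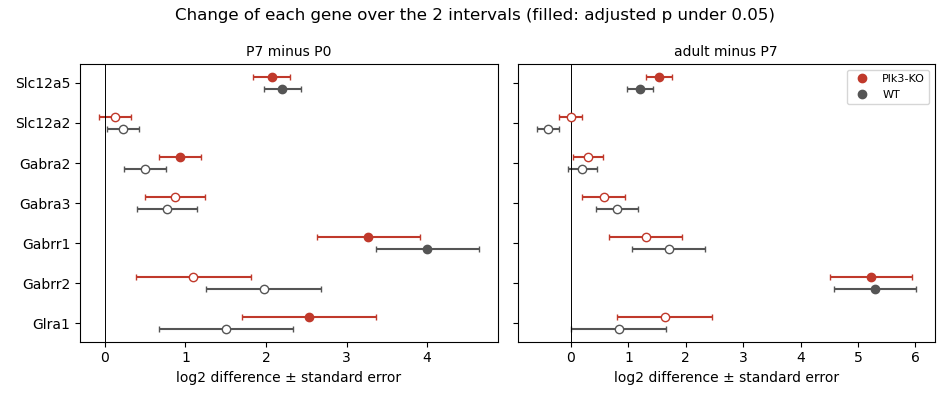
Log2 difference with its standard error for each of the 7 genes on its lead probe set, P7 minus P0 on the left and adult minus P7 on the right, Plk3-KO in red above WT in grey, filled where the adjusted p was under 0.05. Gabrr1 moved most in the first interval (3.27 in Plk3-KO, 4.0 in WT) and Gabrr2 in the second (5.23 in Plk3-KO, 5.30 in WT), and Slc12a5 was called in both.

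**Figure D4:**
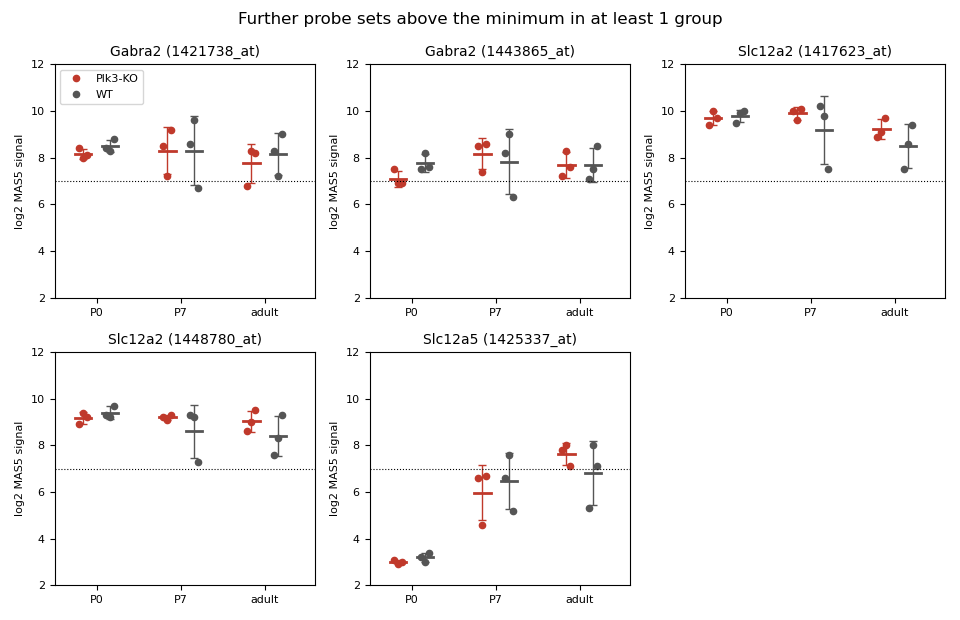
Log2 MAS5 signal of the 5 further probe sets that passed the minimum of 7 (dotted) in at least 1 group, with a point for each array, a bar at the mean of 3 and whiskers of 1 SD, Plk3-KO in red left of WT in grey. P7 WT array 3 is the lowest P7 WT point in every panel, at 6.7 and 6.3 for Gabra2, 7.5 and 7.3 for Slc12a2 and 5.2 for Slc12a5.

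The wider inhibitory pathway was followed in 8 lists with 82 genes, of which 69 had a probe set with a single symbol and 53 passed the minimum. On the lead probe sets, the adult exceeded P0 in 25 and fell below it in 9 of the 53 in Plk3-KO, and in 27 and 8 in WT retinas. Over all probe sets tested the shares were 19.4% higher and 24.2% lower in Plk3-KO and 20.7% higher and 25.9% lower in WT retinas, and the counts of the single lists below are descriptions to be read against them. The P0 means of Gabrd, Gabra4, Gabrg1, Glra3, Slc12a4, Slc6a13, Slc6a5 and Wnk4 were below the minimum, as was that of Gabrb1 in Plk3-KO. The adult means of Ano1, with that of Shmt1 in WT, were also below it. The sizes of the differences of these genes are therefore not firm. Slc6a5 passed the minimum only through the adult arrays and Ano1 only through the P0 arrays, so their calls are descriptions. Of 11 other GABA-A subunits on the array, 5 passed the minimum in some group and were tested, and all 5 were higher in both genotypes. Gabrd, the extrasynaptic delta subunit, passed the minimum only through the adult arrays. It was up by 3.47 in Plk3-KO and 3.87 in WT retinas, and Gabra4 by 2.5 in Plk3-KO and 2.80 in WT retinas. Of 3 other glycine receptor subunits, Glra3 rose by 3.50 in Plk3-KO and 3.80 in WT retinas, and Glrb, the beta subunit that links the receptor to gephyrin, by 1.83 in Plk3-KO and 1.87 in WT retinas. Glra2, the alpha subunit known from immature neurons, averaged 8.60 in Plk3-KO and 8.67 in WT retinas at P0, 9.67 in Plk3-KO and 9.57 in WT retinas at P7, and 8.10 in Plk3-KO and 8.57 in WT adults. It was therefore higher at P7 than at P0 (adjusted p = 0.00721 in Plk3-KO and 0.0211 in WT retinas) and lower in the adult than at P7 (adjusted p = 0.00066 in Plk3-KO and 0.0142 in WT retinas); it was picked out after its values were seen. The largest called rises among 12 anchoring genes, 6 of which rose and none fell in each genotype, were those of Gabarapl1 (2.87 in Plk3-KO, 3.0 in WT), a relative of the GABA-A receptor trafficking protein, and Iqsec3 (1.43 in Plk3-KO, 1.73 in WT), a gephyrin partner.

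On the transmitter side, 10 genes of GABA and glycine synthesis, packaging and uptake were tested. Of them 5 rose and 2 fell in Plk3-KO, and 6 rose and 2 fell in WT retinas. The risers in each genotype included Slc6a13 and Slc6a5, whose P0 means were below the minimum. Gad1, which makes GABA, rose by 2.20 in Plk3-KO and 2.77 in WT retinas, and Slc32a1, the vesicular transporter of both transmitters, by 1.57 in Plk3-KO and 2.5 in WT retinas. Gldc, of the glycine cleavage system, fell by 3.13 in Plk3-KO and 2.63 in WT retinas, and Shmt1, which interconverts serine and glycine, fell by 1.60 in Plk3-KO and 2.13 in WT retinas. Of the 3 other cotransporters tested, Slc12a4 (KCC1) was 0.63 higher in Plk3-KO, which was not called (adjusted p = 0.0678), and 0.87 higher in WT retinas (adjusted p = 0.0157). Slc12a7 (KCC4) fell by 1.43 in Plk3-KO and 0.83 in WT retinas (adjusted p = 0.000708 and 0.0248). Among 9 kinases and partners that set cotransporter activity, 2 rose and 3 fell in Plk3-KO and 3 rose and 3 fell in WT retinas, which is near the shares over all probe sets. Stk39 (SPAK) rose by 1.37 in Plk3-KO and 1.17 in WT retinas, and Cab39l by 1.07 in Plk3-KO and 1.03 in WT retinas. Oxsr1, the relative of Stk39, fell by 1.23 in Plk3-KO and 1.27 in WT retinas, and Wnk3 by 1.17 in Plk3-KO and 1.03 in WT retinas. Of 8 other chloride channels and exchangers, 4 rose and 2 fell in Plk3-KO and 3 rose and 2 fell in WT retinas, led by Slc4a3 (up by 1.43 in Plk3-KO and 1.80 in WT) and Clcn7 (up by 1.20 in Plk3-KO and 1.40 in WT). Clcn2 fell by 1.47 in Plk3-KO and 1.30 in WT retinas, and the calcium-activated channel gene Ano1 by 6.13 in Plk3-KO and 3.47 in WT retinas, with adult means of 3.60 in Plk3-KO and 6.23 in WT retinas. Of 3 GABA-B receptor genes, 1 rose and 1 fell in Plk3-KO and 1 rose in WT retinas; the riser in both was Gabbr1, by 0.67 in Plk3-KO and 0.90 in WT retinas. Progenitor and cycling-cell markers fell over the same ages, with mean levels over 9 genes of 11.99 to 12.31 in Plk3-KO and 11.89 to 12.03 in WT retinas at P0, and 5.91 to 6.91 in Plk3-KO and 5.72 to 6.36 in WT adults. Bipolar markers had means over 8 genes of 7.51 to 8.21 in Plk3-KO and 7.80 to 8.38 in WT retinas at P0, and of 10.60 to 11.19 in Plk3-KO and 11.09 to 11.36 in WT adults. Their part in the age differences was not tested.

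Between genotypes no difference of the 7 genes was called by limma at any age, with 4 of them testable at P0, 5 at P7 and 7 in the adult. The share called of all probe sets was 0% at each of the 3 ages, and also 0% for the genotype difference in the change from P0 to P7 and from P7 to the adult. Before adjustment, limma p-values were under 0.05 for 54 probe sets higher and 31 lower in Plk3-KO at P0, for 68 and 55 at P7, and for 446 and 562 in the adult, and those of the methods' t-test for 258 and 245, 86 and 164, and 286 and 374, with 0 left after adjustment. For the interactions these limma counts were 68 and 60, and 155 and 196. The 0 over all probe sets did not hold without single arrays: in the adult 105 were called higher without adult WT array 3, and 4 lower (and 2 lower for the change from P7 to the adult) without adult Plk3-KO array 2, while 1 was called higher at P7 without P7 WT array 2 and 1 higher at P0 without P0 WT array 1. The lead probe sets of Slc12a5, Slc12a2 and Gabra3 overlapped between genotypes at every age, with Slc12a5 differing by -0.03 at P0, -0.17 at P7 and 0.17 in the adult (SE 0.23 each). Gabra2 at P0 was lower in Plk3-KO without overlap, by 0.33 (SE 0.26, adjusted p = 1, exact permutation p = 0.1, the smallest that 3 arrays against 3 allow), and overlapped at P7 and in the adult. Glra1 was 0.70 higher in adult Plk3-KO retinas (SE 0.83), with overlapping arrays.

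The adult rho subunits were both lower in Plk3-KO without overlap. Gabrr1 averaged 10.23 ± 0.40 in Plk3-KO and 10.97 ± 0.21 in WT adults (SD of 3 arrays), a difference of -0.73 (SE 0.64, limma adjusted p = 0.977, exact two-sided permutation p = 0.1, the smallest possible). Gabrr2 averaged 10.73 ± 0.25 in Plk3-KO and 11.33 ± 0.25 in WT adults (SD of 3 arrays), a difference of -0.60 (SE 0.71, limma adjusted p = 0.977, exact permutation p = 0.1). The limma SEs pool the spread over all groups, including the P0 values below the minimum. On the adult arrays alone, the methods' t-test gave SEs of 0.262 for Gabrr1 and 0.205 for Gabrr2. Its unadjusted p-values were 0.0491 and 0.0432 for them, and 0.997 for both after Benjamini-Hochberg adjustment. Among all probe sets tested in the adult, 3.37% lay below WT without overlap in Plk3-KO, and 5.59% of those on chromosome 4, which carries both rho genes and, 84.0 Mb from Gabrr1, Plk3. Without 4 arrays the differences were -0.85 for Gabrr1 and -0.70 for Gabrr2. At P7 Gabrr1 differed by -0.33 and Gabrr2 by -0.53, with overlapping arrays. The 8 bipolar markers measured were all above the minimum in both genotypes, and their adult levels are given above. Of them 6 had a lower mean in Plk3-KO, and 2 lay below WT without overlap. Lower Plk3-KO means were not particular to this list. They were found in 9 of 10 amacrine, 8 of 8 Mueller glia, 7 of 8 vascular, 6 of 8 microglia and 10 of 10 lens genes. The counts were 3 of 5 for horizontal cells, 3 of 8 for ganglion cells, 4 of 9 for progenitors, 2 of 8 for pigment epithelium, 1 of 3 for red blood cells, 0 of 7 for rods and 0 of 5 for cones. The mean level of 10 amacrine markers was 10.05 to 10.79 in Plk3-KO and 10.70 to 10.98 in WT adults, and that of 10 lens genes 5.61 to 10.71 in Plk3-KO and 9.19 to 12.03 in WT adults. The part of these lists in the rho difference was not tested.

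**Figure D5:**
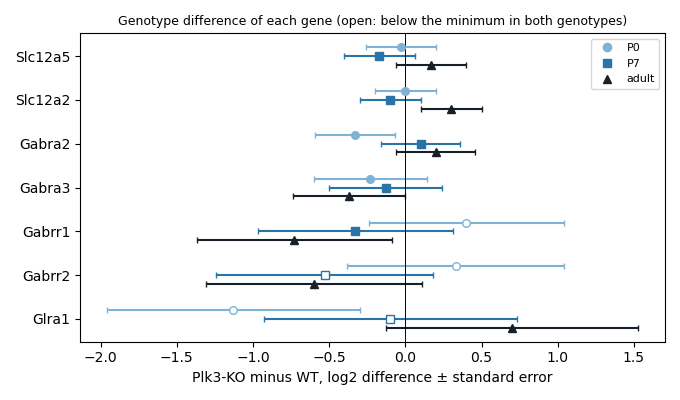
Plk3-KO minus WT difference on the log2 scale with its standard error for each of the 7 genes on its lead probe set, at P0 (circles), P7 (squares) and in the adult (triangles), open where both genotypes were below the minimum of 7. No difference was called. The adult differences of Gabrr1 (-0.73) and Gabrr2 (-0.60) are about the size of their limma standard errors (0.64 and 0.71). These errors pool the spread over all groups, including the P0 values below the minimum. On the adult arrays alone, the methods' t-test gave smaller standard errors, 0.262 for Gabrr1 and 0.205 for Gabrr2 (adjusted p = 0.997 for both).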

How the data were processed

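Total RNA from retinas was amplified, labelled and hybridised to Affymetrix mouse arrays. Per the study's methods, the authors extracted the arrays with the Bioconductor affy package, adjusted the background and normalised with MAS5, and deposited the values as log2 signals, rounded to 1 decimal, from -5.1 to 19.2. Of 45101 probe sets, 64 controls were dropped. GEO's platform annotation gave 34945 of the rest a single symbol, 932 several and 9160 none, and 34741 were matched by gene ID to RefSeq (GRCm38.p6). Scanner files were not used here, and the values were taken as deposited.

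Differences were fitted with limma 3.58.1 in R 4.3.3 (1 mean for each age and genotype, 18 arrays, 12 residual degrees of freedom, variance trend), tested on simulated data first. Age and interaction contrasts covered probe sets with a mean above 7 in any group, genotype contrasts those above 7 in either genotype at that age. The text names the 7 genes and the 2 highest and 2 lowest called list genes in WT adult minus P0. For Gabrr2, Gabrr1 and Slc12a5 only, it also names the 3 genes closest by Pearson r. Glra2 and list genes with means below the minimum are named as well. Members, lists and tests were chosen with earlier results of these data known. Alternatives were other scalings, no minimum, array weights, a replicate block, fewer groups or arrays, other probe sets and the methods' t-test.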

Additional observations from a re-analysis of the deposited data

How the results depend on the processing

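Counts below are of the 7 genes called, against 4, 2 and 6 in Plk3-KO and 2, 2 and 6 in WT retinas for P7 minus P0, adult minus P7 and adult minus P0. With array weights, whose estimate did not converge, 4 were called for adult minus P7 in Plk3-KO, and 7 and 5 for P7 minus P0 and adult minus P7 in WT retinas. The last of these counts includes a fall, that of Slc12a2 (-0.49, limma adjusted p = 0.00384). With the second probe set of each gene, where there was one, 2, 1 and 3 were called in Plk3-KO, and in WT retinas 1 and 3 for adult minus P7 and adult minus P0; 2 second probe sets were below the minimum and not tested, the Slc12a5 calls for P7 minus P0 lie between means below it, and Gabra2 turned to -0.40 in Plk3-KO and -0.33 in WT retinas for adult minus P0. The methods' t-test at an unadjusted p under 0.05 gave 2 genes in the adult genotype comparison, Gabrr1 and Gabrr2. Leaving out 1 array gave 2 to 4, 2 and 6 in Plk3-KO and 2 to 3, 2 to 3 and 4 to 6 in WT retinas, with 2 for P7 minus P0 in Plk3-KO without P7 Plk3-KO array 2 or P0 Plk3-KO array 3, and 0 throughout for genotypes and interactions. The other settings kept each count within 1.5 times. Of 1979 single-gene values recomputed, 28 lost and 22 gained a call, and the sign changed in 52 of the 1398 that were uncalled on both sides.

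Over all probe sets, array weights called 1 higher and 2 lower at P0, 11 and 13 at P7, 1120 and 332 in the adult and 222 and 60 for the change from P7 to adult between genotypes, and leaving out 4 arrays 366 and 21 in the adult and 8 and 2 for that change, where the main fit called 0; none was 1 of the 7 genes. For adult minus P7, counts higher and lower were 4302 and 6731 (weights), 2880 and 6008 (without 4 arrays), 1099 and 1225 (same median) and 936 and 793 (only the groups compared) in Plk3-KO, against 1998 and 2309, and 5190 and 8595, 3583 and 7101, 1493 and 1149, and 1143 and 836 in WT retinas, against 2142 and 2206. For P7 minus P0, weights gave 5156 and 4877 in Plk3-KO and 5675 and 5147 in WT retinas, and leaving out 4 arrays 3819 higher in Plk3-KO and 4108 and 3465 in WT retinas; for adult minus P0, weights gave 6900 and 9606 in Plk3-KO and 6944 and 9893 in WT retinas. Without 1 array, adult minus P7 in WT retinas gave 1185 and 1147 without adult WT array 1, 1213 and 1228 without adult WT array 2, 4193 lower without adult WT array 3 and 1376 lower without P7 WT array 1, and in Plk3-KO 1451 lower without P7 Plk3-KO array 1. Of the 53 pathway genes, weights called 27 and 6 in Plk3-KO and 30 and 6 in WT retinas for P7 minus P0, and 14 and 10, and 15 and 14, for adult minus P7, against 8 and 6, and 8 and 5; for that interval leaving out 4 arrays gave 13 and 13 in WT retinas, arrays at the same median 3 and 5 in Plk3-KO, and only the groups compared 2 and 3 in Plk3-KO and 5 and 2 in WT retinas. The cause was not tested.

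Replicate numbers did not pair the arrays at every age. Same-numbered Plk3-KO and WT arrays correlated in their deviations by -0.058 to 0.188 at P0, -0.61 to 0.379 at P7 and 0.098 to 0.544 in the adult. At P7 arrays of other numbers deviated together, Plk3-KO array 2 with WT array 3 (0.604) and Plk3-KO array 3 with WT array 2 (0.626). The replicate block was the replicate number alone for age contrasts, and age with replicate number for genotype and interaction contrasts. The labels do not link arrays of the same number across ages. With this block the counts of the 7 genes were 3, 2 and 6 in Plk3-KO and 2, 2 and 6 in WT retinas, Glra1 for P7 minus P0 in Plk3-KO losing its call (2.53, adjusted p = 0.0592), and 0 between genotypes.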
